A study of Mus musculus with 8 samples.

Results

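A list of 35 genes that make fatty acids and triglycerides was followed in Hepa1-6 cells, a transformed mouse hepatoma line. The genes were taken from a given list of lipogenesis, desaturation, elongation, glycerolipid and lipid droplet genes. They were matched by symbol in the authors' table of transcript abundance (TPM, scaled by transcript length and library total). In the count table they were matched by Ensembl identifier. No measured value served as a rule of choice, but the list was chosen with earlier results of these data known. All 35 were found once in both tables, among 54446 listed genes. They were read in 7 roles: synthesis of malonyl-CoA and palmitate (6 genes), desaturation (5), elongation (6), activation of fatty acids (4), transcription factors (2), glycerolipid synthesis (8), and lipid droplets with lipolysis (4).

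Polyadenylated RNA was sequenced in 8 libraries that form 4 groups of 2. The control cells had no added agent, and the other groups received trimethylamine N-oxide (TMAO), which the liver makes from a product of gut bacteria, at 50 µM, TNF-α, a cytokine of inflammation, at 50 ng/ml, or both agents at those doses, for 24 h. All groups were grown in the same DMEM with 10% fetal bovine serum, and the strain label is C57BL/6. For the combined group 1 treatment label gives TMAO at both doses, but the titles and protocol give TNF-α as the other agent. The libraries of every group are numbered 14 and 16, with no meaning given, and nothing says that they came from separate cultures, so p-values speak only of differences between the libraries at hand, which may be technical.

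A hepatocyte makes fatty acids from citrate: ATP-citrate lyase (Acly) releases acetyl-CoA, acetyl-CoA carboxylase (Acaca, Acacb) turns it into malonyl-CoA, and fatty acid synthase (Fasn) builds palmitate with NADPH, part of it from malic enzyme (Me1). Elongases (Elovl) lengthen the chain and desaturases (Scd, Fads) add double bonds. Long-chain acyl-CoA synthetases (Acsl) join fatty acids to coenzyme A, and acyltransferases, lipins and diacylglycerol acyltransferases (Gpam, Agpat, Lpin, Dgat) build triglyceride, which is stored in droplets coated by perilipins (Plin) and released by lipases (Pnpla). SREBP-1, encoded by Srebf1, and ChREBP, encoded by Mlxipl, are transcription factors that act on many of these genes.

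Promoters are shown for the 3 members with the smallest p-values for TNF-α, all lower with it, and for Fasn, the central enzyme, whose groups overlapped. They are RefSeq sequences of GRCm38.p6, from 250 bases before to 50 after the first listed start, 5′ to 3′ on the gene's strand: Elovl2 at chr13:41220354-41220653 (minus strand), Acsl1 at chr8:46470787-46471086 (plus), Acsl3 at chr1:78657575-78657874 (plus) and Fasn at chr11:120824498-120824797 (minus). Capitals mark matches to CCAAT, the box bound by NF-Y, on either strand; no other motif searched matched in these 4.
Elovl2: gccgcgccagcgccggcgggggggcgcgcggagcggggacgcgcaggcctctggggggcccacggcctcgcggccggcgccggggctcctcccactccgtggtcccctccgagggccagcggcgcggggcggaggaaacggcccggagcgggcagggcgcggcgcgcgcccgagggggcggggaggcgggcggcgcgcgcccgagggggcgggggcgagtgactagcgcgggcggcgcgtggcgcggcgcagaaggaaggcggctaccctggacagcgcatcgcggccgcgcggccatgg
Acsl1: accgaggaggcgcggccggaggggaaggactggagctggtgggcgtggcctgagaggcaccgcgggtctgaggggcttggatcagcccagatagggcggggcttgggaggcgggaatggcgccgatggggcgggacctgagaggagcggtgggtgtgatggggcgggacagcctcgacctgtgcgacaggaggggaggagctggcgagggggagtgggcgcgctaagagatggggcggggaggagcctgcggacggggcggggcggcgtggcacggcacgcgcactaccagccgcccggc
Acsl3: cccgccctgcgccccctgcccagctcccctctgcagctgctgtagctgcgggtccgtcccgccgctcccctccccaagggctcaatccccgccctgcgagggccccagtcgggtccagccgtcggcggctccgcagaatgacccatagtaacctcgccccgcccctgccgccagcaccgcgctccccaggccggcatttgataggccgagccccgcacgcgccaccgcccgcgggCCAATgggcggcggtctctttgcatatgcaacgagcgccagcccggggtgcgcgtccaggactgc
Fasn: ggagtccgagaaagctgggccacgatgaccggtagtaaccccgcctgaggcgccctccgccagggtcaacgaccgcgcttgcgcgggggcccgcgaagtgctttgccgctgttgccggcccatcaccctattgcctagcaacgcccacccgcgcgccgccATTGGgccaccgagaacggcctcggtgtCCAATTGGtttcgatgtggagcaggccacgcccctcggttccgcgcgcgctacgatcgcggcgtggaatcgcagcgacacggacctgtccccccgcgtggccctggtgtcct

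The Acsl3 window held 1 CCAAT match, starting 15 bases before the start, and the Fasn window held 3, of which 2 overlapped, starting 90, 62 and 59 bases before it. The Elovl2 and Acsl1 windows held none. Of the 29 members with a RefSeq promoter entry, 14 (48.3%) held CCAAT on either strand, against 37.9% of 27025 promoters of the same length. The E-box CACGTG was in 4 of 29, against 7.24% of all promoters, and the NF-κB motif, searched by its usual degenerate form, in 5 of 29, against 8.18%. The LXR element was searched as AGGTCA repeated in the same direction 4 bases apart and the PPAR element as the same repeat 1 base apart; they matched no member and 0.0111% and 0.0444% of all promoters. A match is a description of letters only, and its absence says nothing of the factor. Scd1, Scd2, Fads1, Elovl3, Dgat1 and Dgat2 were not among the 29.

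The libraries held 24736746 to 30488605 counts. TNF-α 16 stood apart: its median correlation with the others was 0.968, against 0.981 to 0.983 for the other 7, and the SD over genes of the log2 difference between libraries was 0.81 in the TNF-α group, against 0.35 to 0.41 in the other groups. The 8 NF-κB target genes used to check the TNF-α label summed to 839 to 897 TPM in the 4 libraries without the agent and 3267 to 3550 TPM in the 4 with it. Of 12 hepatocyte markers, 9 reached 1 TPM; Alb, Afp and Hnf4a were among them, and Ttr, Apoa1 and Serpina1a were not. Of 8 adipocyte markers 3 reached 1 TPM, with Lep and Cfd at 0, and of 6 endothelial markers none did. Of 7 macrophage markers 2 reached it, with Marco at 0, as did 2 of 7 stellate cell or fibroblast markers, mainly the proteoglycan gene Dcn.

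Hepa1-6 cells held transcripts of nearly the whole pathway. In control cells 8 members were at 100 TPM or more, 20 between 10 and 100, 5 between 1 and 10 and 2 below 1. TPM corrects for transcript length, so that genes can be compared with each other. The desaturase gene Scd2 was highest, with 342 and 389 TPM in the control libraries, and the droplet coat gene Plin2 followed with 294 and 329. The lowest Scd2 value lay above the highest Plin2 value. Me1 (mean 207 TPM), Acsl5 (198), Acly (185) and Fasn (164) came next, then Scd1 (111) and Acsl1 (104), whose ranges overlapped.

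**Figure D1:**
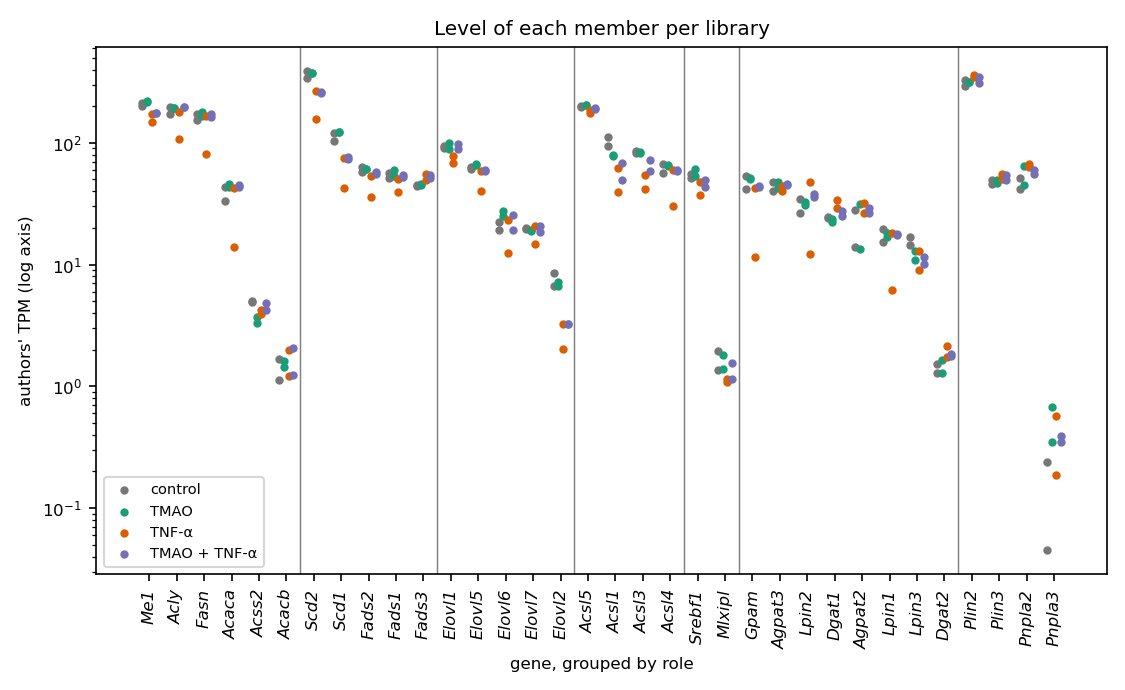
Authors' TPM (log axis) of the members at more than 0 TPM, grouped by role; each point is 1 of 8 libraries, coloured by group. Scd2 and Plin2 sit highest, at 366 and 311 TPM on average in control, and Pnpla3 lowest at 0.143 TPM; Elovl3, at 0 in every library, cannot be shown.

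In the close pairs 1 gene carried most of the transcript. Scd2 made up 75.3% to 78.7% of the TPM of the stearoyl-CoA desaturase pair in the 8 libraries. Acaca, the cytosolic carboxylase, made up 92.0% to 97.4% of the TPM of the carboxylase pair in all 8 libraries, and Dgat1 93.1% to 95.03% of the diacylglycerol acyltransferase pair, with Dgat2 at 1.28 and 1.53 TPM in control. In the larger families the shares were more even: the top gene held 42.6% to 49.9% among the elongases (Elovl1) and 44.4% to 60.6% among the lipins (Lpin2). Mlxipl was at 1.36 and 1.95 TPM in control against 51.8 and 55.3 TPM for Srebf1. Elovl3 had 2 counts in all, both in the library numbered 16 given both agents. Pnpla3, a droplet-associated lipase, had 1 to 9 counts per library and 0.0450 to 0.675 TPM, its groups overlapping. Elovl3 and Pnpla3 did not pass the filter on low counts and were not tested, which leaves 33 of the 35.

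Members that passed as lower with TNF-α were those of the first desaturation (Scd1, Scd2), the long-chain elongase Elovl2, 2 acyl-CoA synthetases and malic enzyme. The calls of Scd2 and malic enzyme depended on single libraries. Averaged over the presence of TMAO, 6 of 33 tested members were lower with TNF-α and none higher by edgeR (quasi-likelihood test, p-values adjusted by Benjamini-Hochberg over 15613 genes, threshold 0.05). In that comparison 9.20% of all genes tested were called, and 3.86% of all genes tested were called as lower. The median log2 fold change was -0.18 over the members and 0.00 over all genes, and 24 of 33 members were below 0. In CPM, counts scaled to the library total with TMM factors, 11 members had all 4 libraries with TNF-α below all 4 without, a pattern held by 10.2% of all genes tested. These 11 were the 6 that passed and Elovl5, Fads1, Fads2, Gpam and Srebf1, which did not. The reverse held for 3 members, Dgat2, Fads3 and Pnpla2, and for 9.81% of all genes.

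The summed hepatocyte markers moved with the same contrast, from 3009 to 3219 TPM without TNF-α to 1308 to 1348 with it. Of the 9 tested, 5 were called lower, beside 3.86% of all genes. Apoa2 lay the other way, at 0.497 to 0.793 CPM without and 1.04 to 2.03 with TNF-α (1.07, edgeR adjusted p = 0.0524). The part of these markers in the results was not tested. Dcn was at 1647 to 1805 CPM without and 1277 to 1462 with TNF-α. Of the macrophage markers Csf1r was lower with TNF-α, at 6.62 to 7.81 CPM without and 2.94 to 3.64 with it (-1.08, edgeR adjusted p = 0.00118). Cd68, the other macrophage marker tested, lay the other way and did not pass (0.33, edgeR adjusted p = 0.119). The summed macrophage markers were at 16.2 to 17.9 TPM without and 17.2 to 19.9 with TNF-α. In bulk samples fewer cells of a type and less RNA per cell cannot be told apart.

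**Figure D2:**
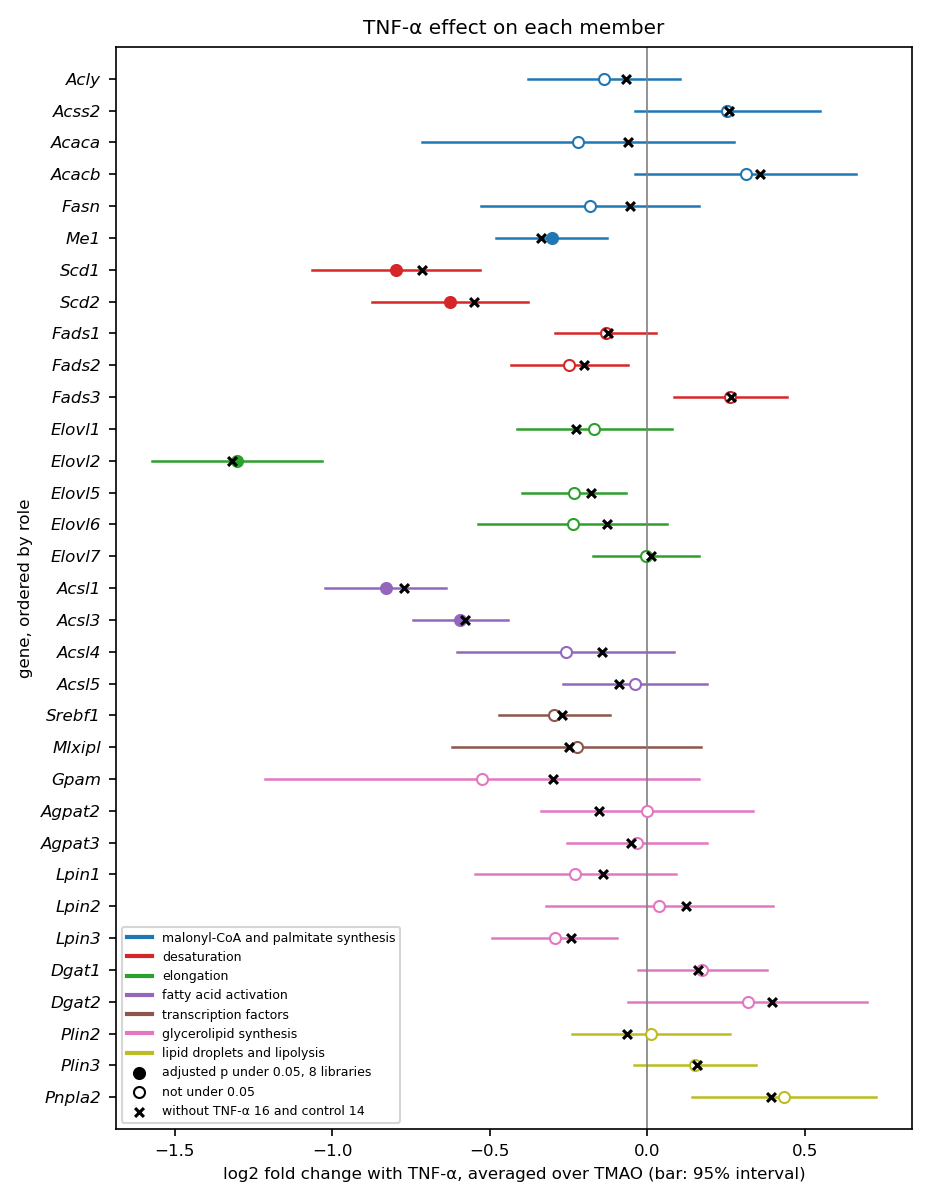
Log2 fold change with TNF-α, averaged over TMAO, for the 33 tested members in order of role; circles and bars are the estimate and its 95% interval over 8 libraries, filled where the edgeR adjusted p is under 0.05, and crosses are the estimate without TNF-α 16 and control 14. Elovl2 lies farthest left at -1.30, and Gpam has the widest interval, -1.21 to 0.17.

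Among genes of malonyl-CoA and palmitate synthesis, Me1 alone passed the test, and its call is a marginal one. It stood at 304 and 307 CPM in control, 309 and 314 with TMAO, 242 and 269 with TNF-α and 247 and 243 with both. The 4 libraries with TNF-α were all below the 4 without. The log2 fold change averaged over TMAO was -0.30 ± 0.07 (SE; edgeR adjusted p = 0.0499). The call was lost on leaving out control 14, control 16, TMAO 14, TMAO 16, combined 14 or combined 16, at edgeR adjusted p of 0.197 to 0.249 and log2 fold changes of -0.29 to -0.30. It was also lost with no filter on low counts (edgeR adjusted p = 0.172) and on the authors' TPM (log2(TPM + 1), limma adjusted p = 0.0514).

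The core enzymes showed no called difference. Fasn, chosen for display after its values were seen, was at 679.7 and 734 CPM in control, 762 and 754 with TMAO, 696 and 445 with TNF-α and 709 and 752 with both. Only TNF-α 16 lay below the range of the other 7 libraries. The log2 fold change was -0.18, with a 95% interval of -0.53 to 0.16 (edgeR adjusted p = 0.604). It was -0.04 without TNF-α 16 (edgeR adjusted p = 0.592) and -0.36 without TNF-α 14 (2.00e-05), where it passed.

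Acaca was at 125 and 150.2 CPM in control, 164 and 156 with TMAO, 149 and 73.3 with TNF-α and 141 and 152 with both. Here too TNF-α 16 was the low library, and the log2 fold change of -0.22 (edgeR adjusted p = 0.678) was -0.01 without it (0.932) and -0.52 without TNF-α 14 (2.29e-05), where it passed. Acacb, the mitochondrial isoform that governs fatty acid import for oxidation, was far lower: 3.01 and 3.65 CPM in control, 3.503 and 3.81 with TMAO, 4.599 and 3.35 with TNF-α and 4.96 and 4.47 with both. Its groups overlapped through TNF-α 16, and the log2 fold change of 0.31 did not pass (edgeR adjusted p = 0.312); it was 0.41 without TNF-α 16 (edgeR adjusted p = 0.0312) and 0.19 without TNF-α 14 (0.300). Acly (-0.14) and the acetyl-CoA synthetase Acss2 (0.25) did not pass.

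Both Δ9 desaturases, which turn saturated into monounsaturated fatty acids, were lower with TNF-α. Scd1 stood at 252 and 276 CPM in control, 286 and 283 with TMAO, 170.3 and 124 with TNF-α and 166 and 172 with both. No library with TNF-α reached the lowest one without it. The log2 fold change was -0.80 ± 0.11, a level 42.5% lower (edgeR adjusted p = 0.00587), and it missed the threshold only in the fit without combined 14 among the 8 that left out 1 library (edgeR adjusted p = 0.0524). On the authors' TPM it did not pass (-0.83 on the log2(TPM + 1) scale, limma adjusted p = 0.0559).

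Scd2 stood at 888 and 941 CPM in control, 919.9 and 913 with TMAO, 637 and 494 with TNF-α and 621 and 624 with both. The groups with and without TNF-α again did not overlap. It fell by 0.63 ± 0.10 on the log2 scale (edgeR adjusted p = 0.0114). Leaving out any 1 library other than those of the TNF-α group put its edgeR adjusted p at 0.0630 to 0.0876, with log2 fold changes of -0.60 to -0.64, and on the authors' TPM it did not pass (-0.68, limma adjusted p = 0.0803). Scd1 and Scd2 are close paralogs, and the sources used here do not give how reads that fit both were counted, so the split between them is uncertain. The ratio of Scd2 to Scd1 TPM was 3.05 to 3.32 without and 3.42 to 3.69 with TNF-α.

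The front-end desaturases Fads1 and Fads2, which act on polyunsaturated chains, and their family member Fads3 showed smaller differences and no call. Fads1, the Δ5 enzyme, was at 90.4 to 99.1 CPM without and 82.7 to 89.2 with TNF-α, and Fads2, the Δ6 enzyme, at 48.6 to 51.1 and 36.3 to 44.4. Fads3, the family member with the lowest TPM in control, lay the other way, at 76.9 and 69.5 CPM in control, 70.8 and 70.5 with TMAO, 86.5 and 98.1 with TNF-α and 79.6 and 82.1 with both. Its 4 libraries with TNF-α were all above the 4 without, at a log2 fold change of 0.26 (edgeR adjusted p = 0.0854), while Fads2 was at -0.25 (0.117). Neither passed in DESeq2, limma-voom or on the authors' TPM. Fads3 and Fads2 were at 0.22 and -0.19 without TNF-α 16, and at 0.31 and -0.31 without TNF-α 14.

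Elovl2, the elongase of long polyunsaturated chains on the way to docosahexaenoic acid, showed the largest difference of the 33 tested members with TNF-α averaged over TMAO. It stood at 12.9 and 16.1 CPM in control, 13.8 and 12.4 with TMAO, 5.62 and 4.84 with TNF-α and 6.04 and 5.89 with both. The libraries with TNF-α were all below those without. The log2 fold change was -1.30 ± 0.11 (95% interval -1.57 to -1.03; edgeR adjusted p = 0.000799), and it passed in all 8 fits that left out 1 library. These levels rest on 374 to 468 counts per library without and 117 to 170 with TNF-α. Elovl2 made up 3.22% to 4.13% of the TPM of the 6 elongases without TNF-α and 1.47% to 1.78% with it.

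The other elongases showed no called difference. Elovl1, the elongase with the highest TPM, was at 116 and 103 CPM in control, 106 and 101 with TMAO, 86.9 and 115 with TNF-α and 88.6 and 89.7 with both. Only TNF-α 16 kept its groups overlapping, and its log2 fold change of -0.17 was -0.28 without that library (edgeR adjusted p = 0.000841) and -0.07 without TNF-α 14 (0.276). Elovl5, which lengthens polyunsaturated chains, was at 85.6 to 89.5 CPM without and 67.9 to 77.8 with TNF-α, with no overlap (-0.23, edgeR adjusted p = 0.0983). Elovl6, which lengthens palmitate, was at -0.24 (0.381) and Elovl7 at 0.00, with a 95% interval of -0.17 to 0.16.

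Of the 4 acyl-CoA synthetases, 2 were lower with TNF-α. Acsl1, the major synthetase of liver and fat, stood at 192 and 199 CPM in control, 194 and 198 with TMAO, 114 and 94.6 with TNF-α and 116 and 117 with both. The libraries with and without TNF-α did not overlap. It fell by 0.83 ± 0.08 on the log2 scale (edgeR adjusted p = 0.00118). Acsl3, a synthetase of the endoplasmic reticulum and droplet surface, stood at 137.5 and 136.9 CPM in control, 137.2 and 136.7 with TMAO, 89.5 and 88.7 with TNF-α and 90.2 and 95.05 with both. The 4 libraries without TNF-α lay within 1 CPM of each other. It fell by 0.59 ± 0.06 (edgeR adjusted p = 0.00174), and both genes passed in all 8 fits that left out 1 library. On the authors' TPM (log2(TPM + 1), limma) Acsl1 did not pass (-0.75, adjusted p = 0.0681), and Acsl3 did not pass with no filter on TPM (-0.58, adjusted p = 0.0816).

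Acsl5 and Acsl4 did not pass. Acsl5, with the highest TPM of the family, was at 255 and 233 CPM in control, 254 and 252 with TMAO, 222 and 283 with TNF-α and 232 and 232 with both, its groups overlapping (-0.04, 95% interval -0.27 to 0.19). Acsl4, which prefers arachidonic acid, was at 142 and 161 CPM in control, 155 and 162 with TMAO, 146 and 91.6 with TNF-α and 143 and 139.9 with both (-0.26, edgeR adjusted p = 0.413). Of the TPM of the 4 synthetases, Acsl5 made up 42.7% to 47.4% without TNF-α and 51.1% to 61.1% with it. The sum of the 4 was 431 to 462 TPM without and 288 to 381 with TNF-α.

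**Figure D3:**
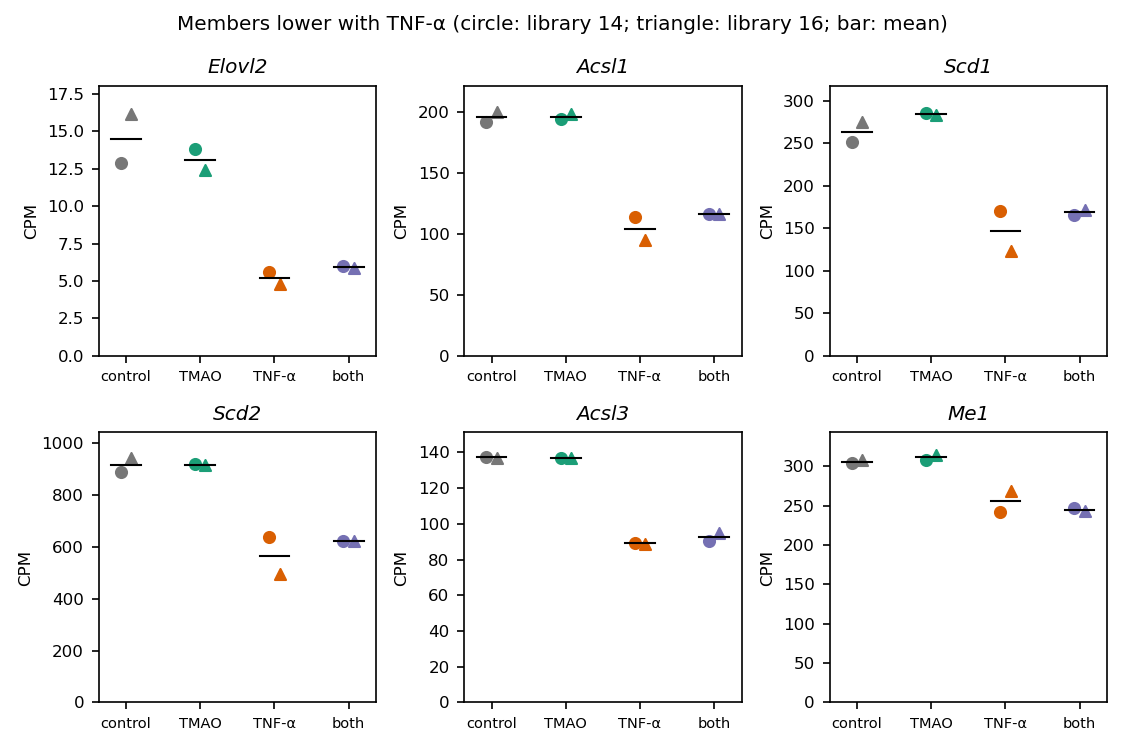
TMM-scaled CPM of the 6 members called lower with TNF-α, by group; circles are libraries 14, triangles libraries 16 and bars the group mean of 2. In each of the 6 panels the 4 libraries with TNF-α lie below the 4 without, from Elovl2 (at most 6.04 against at least 12.4 CPM) to Me1 (at most 269 against at least 304).

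Srebf1 lay close to the threshold. It was at 126 and 116 CPM in control, 121 and 119 with TMAO, 98.6 and 103 with TNF-α and 89.8 and 101 with both, with no overlap between libraries with and without TNF-α. The log2 fold change was -0.29 ± 0.07 (edgeR adjusted p = 0.0557). Srebf1 passed in DESeq2 (adjusted p = 0.0188) and with a filter of 1 CPM in 2 libraries. It did not pass under other scalings, limma-voom, no filter on low counts or on the authors' TPM. The estimate was -0.31 without TNF-α 16 and -0.27 without TNF-α 14. The table does not separate the SREBP-1a and SREBP-1c transcripts. Mlxipl was at 1.96 and 1.96 CPM in control, 1.51 and 1.56 with TMAO, 1.36 and 1.49 with TNF-α and 1.33 and 1.77 with both. Its groups overlapped (-0.22, edgeR adjusted p = 0.571), and a difference within its interval of -0.62 to 0.17 was not detectable at this depth.

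None of the 8 glycerolipid genes passed. Gpam, the mitochondrial enzyme of the first acylation and the glycerolipid gene with the highest TPM, was at 85.0 and 103 CPM in control, 103 and 98.7 with TMAO, 81.6 and 28.5 with TNF-α and 84.3 and 81.8 with both. All 4 libraries with TNF-α were below the 4 without, but TNF-α 16 was far below the other 3. The log2 fold change was -0.52 ± 0.29 (edgeR adjusted p = 0.403), -0.24 without TNF-α 16 (0.00845) and -0.997 without TNF-α 14 (3.77e-08). The size of the Gpam difference rests on TNF-α 16.

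The lipins, which turn phosphatidate into diacylglycerol, gave mixed values. Lpin1 was at 35.04 and 40.9 CPM in control, 37.0 and 36.8 with TMAO, 36.0 and 23.9 with TNF-α and 34.2 and 33.9 with both. Lpin2 was at 59.9 and 74.1 in control, 66.5 and 67.4 with TMAO, 78.2 and 49.2 with TNF-α and 76.0 and 72.5 with both. Lpin3 was at 23.5 and 23.4 in control, 17.7 and 19.8 with TMAO, 18.8 and 16.7 with TNF-α and 17.1 and 15.9 with both. The groups of all 3 overlapped between libraries with and without TNF-α, and their log2 fold changes were -0.23, 0.04 and -0.29 (edgeR adjusted p = 0.440, 0.929 and 0.0848). In Lpin3 the control libraries were above all 6 treated ones.

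Dgat1 and Dgat2, which complete triglyceride by separate proteins, lay above 0 and did not pass. Dgat1 was at 23.3 and 21.2 CPM in control, 22.7 and 21.8 with TMAO, 24.7 and 28.8 with TNF-α and 24.7 and 22.6 with both (0.17, edgeR adjusted p = 0.334). Dgat2 was at 1.69 and 1.34 CPM in control, 1.44 and 1.69 with TMAO, 2.08 and 2.19 with TNF-α and 1.76 and 1.70 with both (0.32, edgeR adjusted p = 0.345). The libraries of Dgat2 with and without TNF-α did not overlap, by a narrow margin. Agpat2 (0.00) and Agpat3 (-0.03), acyltransferases of the second step, had 95% intervals of -0.34 to 0.33 and -0.25 to 0.19.

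Droplet coat genes showed no called difference, and the lipase gene lay above 0. Plin2 was at 309 and 289.6 CPM in control, 294 and 298 with TMAO, 281 and 374 with TNF-α and 278 and 272 with both, its groups overlapping (0.01, 95% interval -0.24 to 0.26). Plin3 was at 0.15 (edgeR adjusted p = 0.388). Pnpla2, the adipose triglyceride lipase, described after its values were seen, was at 70.7 and 57.8 CPM in control, 65.4 and 60.9 with TMAO, 81.6 and 113 with TNF-α and 74.3 and 78.2 with both. Its 4 libraries with TNF-α were above the 4 without, at a log2 fold change of 0.43 ± 0.12 (edgeR adjusted p = 0.0831). Pnpla2 passed in DESeq2 (adjusted p = 0.0251) and with no filter on low counts. It did not pass under other scalings, limma-voom, a filter of 1 CPM in 2 libraries or on the authors' TPM. The estimate was 0.31 without TNF-α 16 and 0.54 without TNF-α 14.

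**Figure D4:**
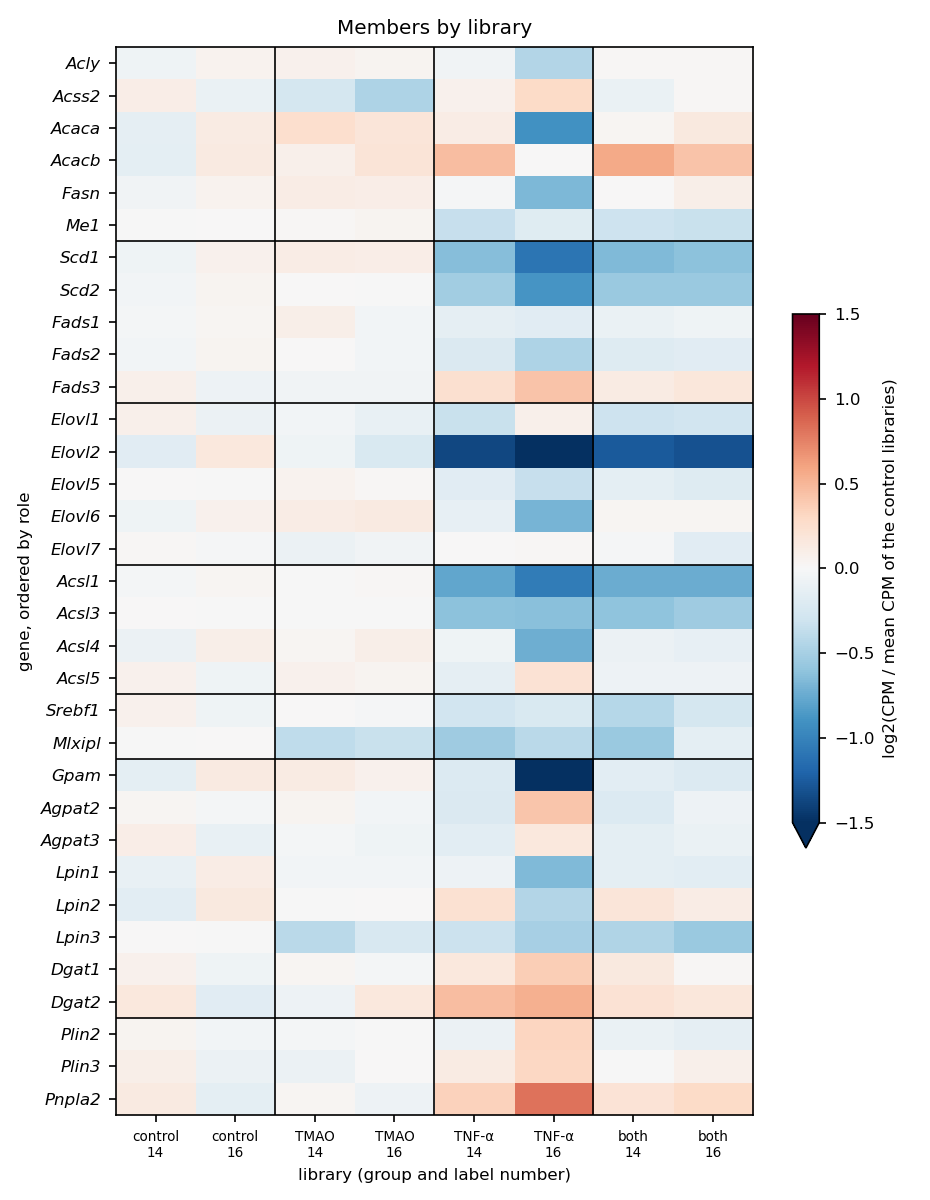
Log2 of CPM over the mean of the control libraries, per member (in order of role) and library; the colour scale is cut at its lower end. Elovl2, Acsl1, Acsl3, Scd1, Scd2 and, narrowly, Gpam are below every library without TNF-α in all 4 with it. These genes, Acaca and Fasn all have their lowest value in TNF-α 16 (28.5 CPM for Gpam, 73.3 for Acaca and 445 for Fasn). Acaca and Fasn otherwise overlap the libraries without TNF-α.

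Each TNF-α group was also compared with control. These comparisons share the control libraries, so their values are only set side by side. TNF-α alone had 4 members lower and none higher (Elovl2, Acsl1, Acsl3, Scd1), where 4.05% of all genes were called, 1.67% as lower. Both agents had 3 lower and none higher (Elovl2, Acsl1, Acsl3), where 3.49% were called, 1.48% as lower. Elovl2 was at -1.47 with TNF-α alone and -1.28 with both (edgeR adjusted p = 0.00488 and 0.00801), Acsl1 at -0.91 and -0.75 (0.00801 and 0.0170), and Acsl3 at -0.62 and -0.57 (0.0130 and 0.0192). Scd1 was at -0.85 and -0.64 (edgeR adjusted p = 0.0355 and 0.0921), and Scd2 at -0.69 and -0.56 (0.0524 and 0.115).

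The number called depended on single libraries. Leaving out 1 library gave 0 (without control 16) to 25 (without TNF-α 14) members called with TNF-α alone, and 9 without TNF-α 16; the shares of all genes called were 48.9% without TNF-α 14 and 12.9% without TNF-α 16. For both agents it gave 0 (without control 16, combined 14 or combined 16) to 10 (without TNF-α 14), and 9 without TNF-α 16, beside 18.2% and 18.4% of all genes. Each such fit that keeps a single library of a group takes its spread from the other groups.

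TNF-α 16 differed from TNF-α 14 along transcript length. Over the 33 tested members, Pearson's r between log2 length of the longest annotated transcript and the log2 difference of library 16 from library 14 was -0.74 in the TNF-α group, 0.62 in control, 0.10 with TMAO and -0.01 with both. Over 15607 tested genes with a length it was -0.23, 0.11, -0.01 and 0.05. The points share 2 libraries, and genes are not independent. All genes were also put in 10 bins by length. The median difference in the TNF-α group was 0.29 in the bin of the shortest genes (median 607 bases). It was 0.51 in the next bin (1224 bases) and ran down to -0.77 in that of the longest genes (7927 bases). Fasn (10050 bases), Acaca (9513) and Gpam (6172) are among the long members, and Agpat2 (1489) and Plin2 (1888) among the short ones. Not every long member followed the trend: Agpat3 (5980 bases) was at 0.31 in the TNF-α group, against -1.51 for Gpam.

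**Figure D5:**
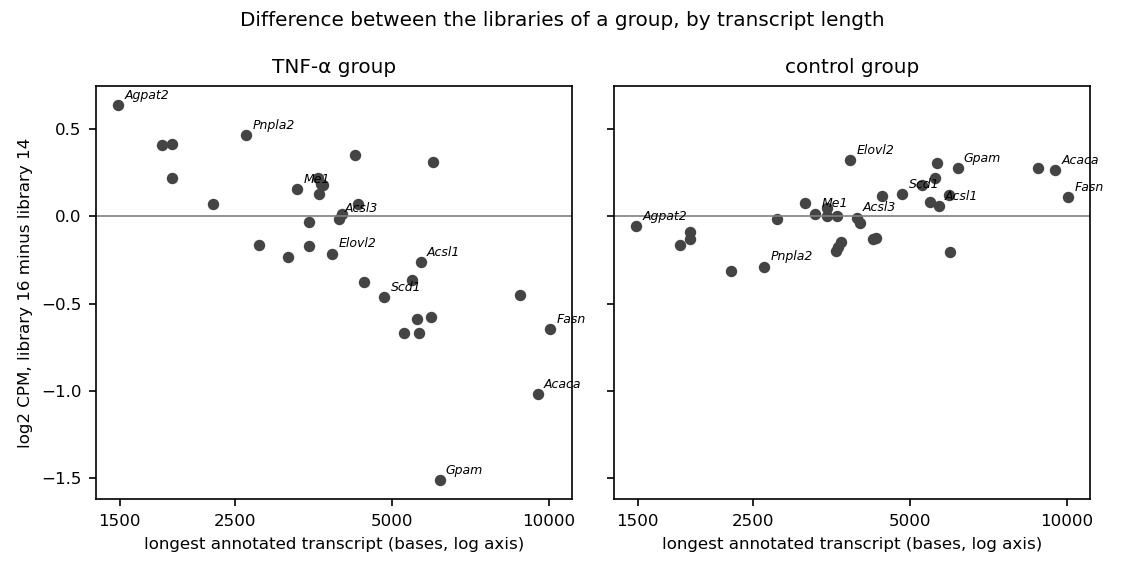
Log2 CPM of library 16 minus library 14 against the longest annotated transcript (bases, log axis), with 1 point per tested member. There is 1 panel for the TNF-α group and 1 for control, and the other groups are not shown. In the TNF-α panel the points descend with length (r = -0.74), to -1.51 for Gpam, and in control they ascend (r = 0.62).

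Without TNF-α 16, 16 members were called with TNF-α averaged over TMAO, 13 lower and 3 higher, where 25.0% of all genes were called, 12.8% as lower and 12.2% as higher. Without TNF-α 16 and control 14 these were 26 members, 20 lower and 6 higher, where 34.0% of all genes were called, 17.4% as lower and 16.6% as higher. Without TNF-α 14 they were 23, 18 lower and 5 higher, where 45.6% of all genes were called, 23.6% as lower and 22.0% as higher. The calls differed by library: Acly, Acaca, Fasn, Fads1, Elovl6, Acsl4 and Lpin1 as lower, and Dgat1, Plin2 and Plin3 as higher, passed without TNF-α 14 and not without TNF-α 16. Acsl5 and Elovl1 as lower and Acacb as higher passed without TNF-α 16 and not without TNF-α 14. Plin2 was called higher without TNF-α 14 (0.11, edgeR adjusted p = 0.0447) and lower without TNF-α 16 and control 14 (-0.07, 0.0296). DESeq2, over all 8 libraries, called 8 members, 7 lower and 1 higher, and 11.2% of all genes. The fit without TNF-α 16 and control 14 keeps a single library in each of those groups and takes its spread from the other groups. In that fit Elovl2 was at -1.32, Acsl1 at -0.77, Scd1 at -0.71, Acsl3 at -0.58, Scd2 at -0.55 and Me1 at -0.34. Fasn was then at -0.06 and Acaca at -0.06, against -0.18 and -0.22 over 8 libraries.

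TMAO had no called member. Against control no member passed, at log2 fold changes of -0.37 to 0.22, and averaged over TNF-α none passed, at -0.29 to 0.35; 0.00% of all genes were called in either comparison. At an unadjusted p under 0.05 there was 1 member in each, Lpin3, and 184 and 453 of all genes. Lpin3 was at -0.32 against control and -0.21 averaged over TNF-α (95% interval -0.41 to -0.02; edgeR adjusted p = 0.660). DESeq2 called 4 genes with TMAO against control, none a member. The median half-width of the members' 95% intervals was 0.35 against control and 0.25 averaged, so differences of that size were within the error.

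The interaction, which asks whether TNF-α acted differently in the presence of TMAO, had no called member and no called gene (0.00%); 0 members and 184 genes had an unadjusted p under 0.05. The members' estimates ran from -0.35 to 0.49, with a median half-width of 0.49. Elovl2 was at 0.33 (95% interval -0.20 to 0.87) and Scd1 at 0.09 (-0.44 to 0.62). Without TNF-α 14, which leaves TNF-α 16 as the only library of its group, 20 members were called for TMAO averaged over TNF-α, where 44.8% of all genes were, and 16 for the interaction, where 35.5% were. Each of the other 7 fits that left out 1 library called no member in either comparison.

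Genes around the pathway were counted from 6 other lists for TNF-α averaged over TMAO. In that comparison 9.20% of all genes tested were called, 3.86% as lower. Left-out fits are not given for these lists. None of 8 genes that control SREBP processing passed; the smallest p was that of Insig1, which retains SREBP in the endoplasmic reticulum (-0.39, edgeR adjusted p = 0.0503). Of 18 other tested lipogenesis genes 2 were lower: Mid1ip1, which promotes the polymerisation of acetyl-CoA carboxylase (-1.01, edgeR adjusted p = 0.00269), and the NADP-dependent isocitrate dehydrogenase gene Idh1 (-0.51, 0.00396). Mid1ip1 was at 95.6 to 104 CPM without and 42.4 to 59.8 with TNF-α. Of 10 other glycerolipid genes none passed, with Agpat5 (-0.37, 0.0701) and Mogat2 (-0.45, 0.130) having the smallest p.

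Of 13 other droplet genes, 1 was higher and 3 were lower with TNF-α. The counts here stand beside 9.20% of all genes called, 3.86% as lower. G0s2, an inhibitor of the lipase encoded by Pnpla2, was at 5.85 to 8.15 CPM without and 16.6 to 29.9 with TNF-α (1.49, edgeR adjusted p = 0.00270). The droplet dehydrogenase gene Hsd17b11 (-0.55, edgeR adjusted p = 0.0148), the droplet biogenesis gene Fitm2 (-0.32, 0.0276) and Mttp, which loads triglyceride onto apolipoprotein B (-0.37, 0.0416), were lower. Of 16 nuclear receptor and partner genes 2 were higher, Ppard (0.54, edgeR adjusted p = 0.00448) and the bile acid receptor gene Nr1h4 (0.89, 0.00504). Of 23 cholesterol genes 6 were lower and none higher, with a median of -0.32. The 3 with the smallest p were Sqle (-0.63, edgeR adjusted p = 0.00183), Dhcr7 (-0.48, 0.00759) and Nsdhl (-0.45, 0.0155). No gene of the 6 lists was called for TMAO averaged over TNF-α or for the interaction.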

How the data were processed

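Counts per gene and library, not normalized, were deposited by the authors, with htseq named as the counter. The authors also deposited TPM values per gene symbol, made by a program that the sources used here do not name. The submitters' processing notes name the build mm9; they give no aligner, annotation or strand setting. Symbols and transcript lengths came from GENCODE M21 (GRCm38).

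Counts were tested with edgeR 4.0.16 in R 4.3.3: filterByExpr kept 15613 of 54446 genes, libraries were scaled by TMM, 4 group means were fitted to all 8 libraries (glmQLFit, robust), and 6 contrasts were tested by the quasi-likelihood test, with Benjamini-Hochberg adjustment over all genes kept at 0.05. CPM carries no pseudocount. Values in every library are given for called members, close pairs and the highest and lowest TPM of each role, and other lists by their called genes (up to 4 in order of p) or, with none called, the 2 with the smallest p; in some lists a gene so chosen is not reported here. Members and lists were chosen with earlier results of these data known. Alternatives were DESeq2 1.42.0, limma-voom (limma 3.58.1), other scalings and filters, a replicate block, fits of only the groups compared, left-out libraries, and limma on log2(TPM + 1) or log2(TPM + 0.1). Programs were tested on simulated data. At these depths 3 counts equal 0.0984 to 0.121 CPM, a limit for counting error alone.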

Additional observations from a re-analysis of the deposited data

How the results depend on the processing

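For TNF-α averaged over TMAO, the 6 members called stayed called under RLE or total-count scaling and limma-voom, beside 9.17%, 9.26% and 9.18% of all genes. With no filter on low counts 6 were called (5 lower without Me1, and Pnpla2 higher), beside 5.98% of all genes. A filter of 1 CPM in 2 libraries gave 7 (adding Srebf1), beside 10.5%, and DESeq2 gave 8 (adding Srebf1 and Pnpla2), beside 11.2%. Limma called 2 members (Elovl2, Acsl3) on log2(TPM + 1), 2 on log2(TPM + 0.1) and 1 (Elovl2) with no filter on TPM, beside 5.42%, 5.16% and 1.95% of all genes. Leaving out 1 library gave 3 to 23 members, and leaving out TNF-α 16 and control 14 gave 26. For TNF-α against control, leaving out 1 library gave 0 to 25, leaving out TNF-α 16 and control 14 gave 19 (20.1% of all genes), and fitting only the 2 groups gave 0 (0.00672%). For both agents against control, leaving out 1 library gave 0 to 10, leaving out those 2 gave 17 (22.8% of all genes), DESeq2 gave 6 (5.76%) and only the 2 groups gave 9 (15.9%). Leaving out 1 library gave 0 to 20 for TMAO averaged over TNF-α and 0 to 16 for the interaction, all calls coming without TNF-α 14. The cause of these changes was not tested. None of the 6 members called for TNF-α averaged over TMAO with all 8 libraries reversed its direction in these alternatives; Plin2, called only in left-out fits, was called in opposite directions in 2 of them.

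Correlations of deviations from the group means were -0.42 for control and TNF-α and -0.05 to 0.00 for the other 5 pairs of groups. They showed no pairing of the libraries by label number, but with 2 libraries a group they cannot exclude one. With the number as a replicate block, 5 members were called for TNF-α averaged over TMAO (Me1 lost), 3 for TNF-α against control (Scd1 lost) and 1 for both agents against control (Acsl1 and Acsl3 lost), and calls over all genes were 342 for TNF-α against control, 301 for both and 1011 averaged, against 633, 545 and 1437 without the block. Crossing the numbers of the TNF-α group, an alternative chosen after seeing the data, gave 557, 491 and 1347 of all genes. DESeq2 called 960, 899 and 1749 of all genes in those comparisons. With 2 libraries a group, the members' 95% intervals had a median half-width of 0.35 on the log2 scale for pairs of groups.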

Other observations

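The deposited TPM values and the counts did not always give the same difference for a member. For Acsl1 with TMAO against control, the log2 difference of group means was 0.00 in CPM and -0.38 in TPM, where the libraries stood at 94.8 and 112 TPM in control and 78.5 and 79.8 with TMAO. For Agpat2, an acyltransferase of the second step of glycerolipid synthesis, the log2 difference with TNF-α averaged over TMAO was -0.02 in CPM and 0.50 in TPM. The ratio of CPM to TPM, which is fixed for a gene of fixed length apart from the library's scale, varied 2.26 times over the 8 libraries for Agpat2, 2.46 times for Lpin2, 1.99 times for Lpin1 and 1.84 times for Elovl1. These values include the library's scale, and the smallest among the tested members was 1.27 times, for Acsl4. The relation of the ratio to transcript isoforms was not tested.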
